A study of Homo sapiens with 12 samples.

Results

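The 3 BE(2)-C samples given DMSO, the solvent control, were compared with the 3 Kelly samples given DMSO, that is 6 of the 12 arrays of the series, to describe how the lines differed without the drug. The samples were chosen by their labelled cell line and treatment, not by a measured value. Both are established human neuroblastoma lines that carry an amplified MYCN gene, and BE(2)-C is a clonal subline of SK-N-BE(2). Cells of both lines grew in DMEM with serum and received DMSO for 24 h. Total RNA was read on the Affymetrix PrimeView array, which labels RNA from its 3' end. The other 6 arrays hold the same lines after 24 h of 1 µM JQ1, an inhibitor of BET bromodomain proteins, and serve below as a second set of arrays for the line difference. The labels call the samples triplicates and do not say that they were separate cultures, so a p-value here is set against differences between arrays that may be no more than technical. Each group was a single line, so every difference is one between these lines as cultured here.

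Neuroblastoma arises from sympathoadrenal precursors of the neural crest, the cells that form sympathetic neurons and the adrenal medulla. Such cells make noradrenaline, store it with granins and peptides in dense-core vesicles, and are held in their state by factors such as PHOX2A, HAND2, GATA2, GATA3 and ISL1. Neuroblastoma lines differ in how far they express this adrenergic programme or a mesenchymal one, rich in matrix, S100 and annexin genes.

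Levels are log2 of the deposited intensity, and values for a line are given in the order of replicates 1, 2 and 3. A log2 fold change is BE(2)-C minus Kelly, so a negative value means higher in Kelly. A gene passed at a Benjamini-Hochberg adjusted p below 0.05 in limma over 18132 genes, and is said to be lost under an alternative where it no longer did. A gene was read from its brightest probe set. Where the mean over its probe sets gave a log2 fold change over 1.5 times smaller or larger, it is given as the probe set mean. This was so for 111 of the 295 named genes that passed, and the mean was the smaller value in 109. An offset of 32 added to all intensities made 51 of the 295 values smaller by over 1.5 times. Levels of different genes are not comparable. The files hold no detection calls. The 23 background control probe sets had median levels of 3.91 to 4.31 in the 6 arrays, so folds against levels this low have an uncertain denominator.

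Arrays correlated at 0.960 to 0.995 within BE(2)-C, at 0.952 to 0.989 within Kelly and at 0.916 to 0.955 between the lines. The signal of 9 control probe sets for RNA added at hybridisation was highest in BE(2)-C replicate 1 (12.92, against 10.74 and 9.94) and Kelly replicate 3 (13.26, against 11.74 and 10.70). The 3' minus 5' signal of ACTB, a sign of RNA integrity, was 1.24, 0.63 and 0.87 in BE(2)-C and 1.24, 1.55 and 2.22 in Kelly. With the ACTB signal as a covariate 12 of the 295 named values were larger by over 1.5 times and 22 were smaller by over 1.5 times. With this covariate 35 of the 295 named calls were lost. Among the genes below these were BCL2L11, BOP1, CCNB2, CCND1, CDH10, CHGB, COL9A1, CYB561, DAPK1, EPHB3, HBP1, HLA-C, HOXC4, HPRT1, ITGB5, LAMC1, LRPAP1, LYAR, MLX, NRP1, SCG3, SFRP1 and TWIST1. With the 6 DMSO arrays fitted alone 43 were lost, among them CADPS, CCND1, CFLAR, CHGB, EPHB3, GATA3, GCH1, ISL1, MEIS1, NDN, SCG3, SLC18A2, SOX4, SOX12 and TWIST1. Without the pair of arrays with the highest control signal 2823 genes passed, against 2735 with all arrays.

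Of the 18132 genes 2735 passed (15.1%), 1305 of them higher in BE(2)-C (7.20%) and 1430 higher in Kelly (7.89%). The counts of gene lists below are to be read against these shares. A difference of at least 2-fold passed in 1532 genes (8.45%), 776 higher in BE(2)-C and 756 in Kelly. Differences of at least 16-fold were found for 18 genes in BE(2)-C and 32 in Kelly. The median log2 fold change of all genes was -0.04, and the median standard error was 0.21. In 2692 of the 2735 genes the arrays of the lines did not overlap, where 25.7% of all genes had arrays that did not overlap. All 3 arrays of one line at 8 or above with all 3 of the other under 5 were seen for 8 genes bright in BE(2)-C and 18 bright in Kelly.

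**Figure D1:**
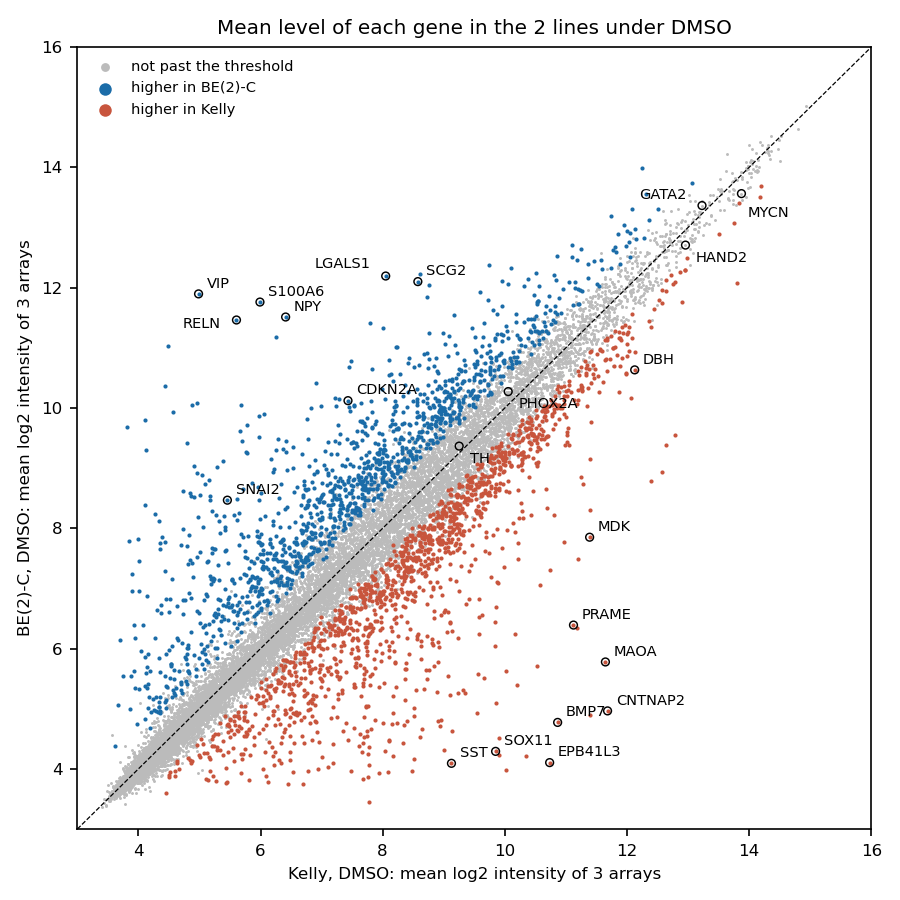
Mean log2 intensity of all but 25 of the 18132 genes in Kelly (x axis) and BE(2)-C (y axis), 3 DMSO arrays each. Blue and red points passed, grey points did not, and the dashed line marks equal levels. Most genes lie near the line, with VIP, RELN, S100A6 and NPY far above it and CNTNAP2, EPB41L3, MAOA and SST far below, while MYCN, HAND2, GATA2 and PHOX2A lie close to it.

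The 20 genes furthest above Kelly in BE(2)-C, and the 20 furthest the other way, were chosen among those whose arrays did not overlap. VIP, a vasoactive neuropeptide, read 11.47, 12.03 and 12.19 in BE(2)-C and 4.82, 5.43 and 4.70 in Kelly. Its BE(2)-C arrays were bright and its Kelly arrays dim (log2 fold change 6.91, SE 0.24, adjusted p = 1.33e-09, 120-fold). B3GALNT1, the enzyme that makes the globoside glycolipid, read 10.39, 11.28 and 11.43 against 4.26, 4.59 and 4.60 (log2 fold change 6.55, SE 0.26, adjusted p = 5.20e-09). RELN, the secreted glycoprotein reelin that guides migrating neurons, read 11.19, 11.61 and 11.59 against 5.66, 5.45 and 5.72 (57.9-fold, adjusted p = 2.26e-09). IL13RA2, a decoy receptor for interleukin-13, read 9.94, 10.46 and 10.71 against 4.19, 4.27 and 4.85 (61.2-fold, adjusted p = 6.17e-09).

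Among the other leading genes of BE(2)-C, ENPP2 codes for autotaxin, which makes lysophosphatidic acid. It read 9.08, 9.27 and 9.56 in BE(2)-C and 4.22, 3.88 and 4.30 in Kelly (log2 fold change 5.17, SE 0.21, adjusted p = 6.17e-09). LPAR1, a receptor for that lipid, was higher in the same line, with 8.28, 9.17 and 9.35 against 6.18, 6.25 and 6.18 (log2 fold change 2.73, SE 0.29, adjusted p = 2.32e-05). EDIL3, a secreted integrin ligand, read 9.83, 9.10 and 10.13 against 3.70, 3.91 and 3.83 (58.6-fold). The brightest of its 5 probe sets gave a log2 fold change of 5.87 and their mean gave 2.12. The same held for KCNT1, a sodium-activated potassium channel (5.12 against 2.07 for the mean of 3), and AKR1C3, an aldo-keto reductase with close paralogs (4.94 against 2.49 for the mean of 2). SGK1, a kinase induced by glucocorticoids, read 9.63, 10.28 and 10.25 against 5.72, 5.32 and 6.01 (4.37). PTPRR (4.61), a receptor phosphatase, EGLN3 (4.12, probe set mean 2.41), an oxygen-sensing hydroxylase, and ARID5B (3.96), a chromatin factor, were also among the 20 furthest genes, of which ARID5B was the last at 15.6-fold.

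CNTNAP2, a neurexin-family protein of axons, read 4.72, 5.17 and 5.01 in BE(2)-C and 11.64, 11.69 and 11.71 in Kelly (log2 fold change -6.72, SE 0.19, adjusted p = 3.13e-10, 105-fold), the most negative value of the genes ranked here. EPB41L3, a membrane skeleton protein and tumour suppressor candidate, read 3.75, 4.24 and 4.32 against 10.70, 10.57 and 10.93 (log2 fold change -6.63, probe set mean -3.78, 98.9-fold, adjusted p = 2.52e-10). GTSF1, a germ-line gene of the piRNA pathway, read 4.92, 4.97 and 4.80 against 11.64, 11.70 and 10.86 (90.9-fold, adjusted p = 1.09e-09). BE(2)-C was dim in every array for these 3.

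STK26, a kinase of the germinal centre family, read 3.95, 4.19 and 4.52 in BE(2)-C and 10.27, 10.53 and 10.23 in Kelly (-6.12, probe set mean -3.80). PLOD2, which hydroxylates lysines in collagen and sets its cross-links, read 4.01, 3.90 and 4.02 against 9.94, 10.22 and 9.89 (log2 fold change -6.04, SE 0.20, adjusted p = 1.24e-09). SLC44A5, of the choline transporter-like family, read 4.16, 4.37 and 4.15 against 9.75, 10.05 and 9.91 (-5.68, probe set mean -3.15). Every probe set of these 3 genes passed in the same direction. TRIM29 (-4.81, probe set mean -2.63), TTC9B (-4.83), TMEM98 (-4.80), NELL2 (-4.76, probe set mean -3.12), PTPRG (-4.69, probe set mean -2.34) and HS6ST2, a heparan sulfate sulfotransferase (-4.62, probe set mean -1.91), were also among the 20 furthest. PTPRG is a receptor phosphatase, as is PTPRR on the other side. The signal of PCDHB5 (-4.51), a protocadherin with near-identical neighbours in its cluster, may be shared with them.

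**Figure D2:**
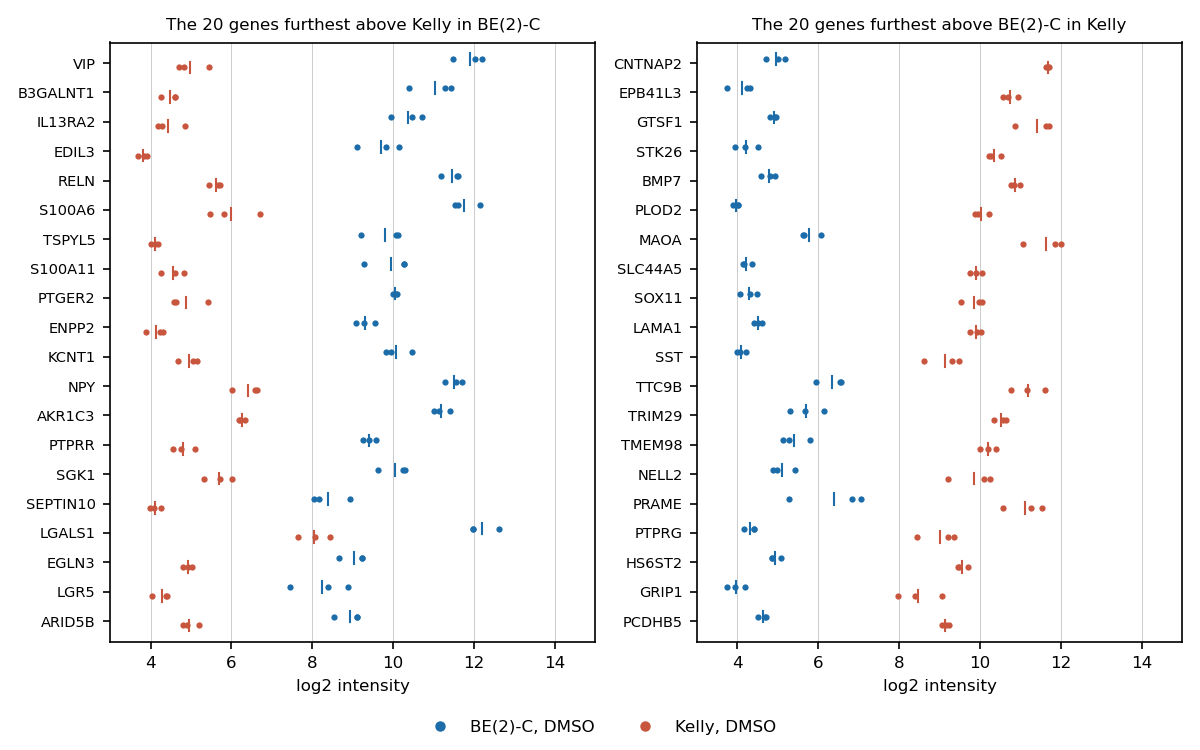
Log2 intensity (x axis) in each DMSO array of the 20 genes furthest above Kelly in BE(2)-C (left) and the 20 furthest above BE(2)-C in Kelly (right); points are arrays, ticks are means of 3. Genes were chosen to have arrays that do not overlap, and many dim lines lie between 4 and 6.

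Most core adrenergic transcription factors did not pass, and those that did were mainly higher in Kelly. Of 18 measured adrenergic factors 1 was higher in BE(2)-C, 7 were higher in Kelly (38.9%, where 7.89% of all genes were) and 10 did not pass, with a median log2 fold change of -0.36. PHOX2A, a homeodomain factor of noradrenergic neurons, read 10.33, 10.16 and 10.32 in BE(2)-C and 10.14, 9.97 and 10.05 in Kelly (log2 fold change 0.22, SE 0.16, adjusted p = 0.517). HAND2 read 12.58, 12.86 and 12.68 against 13.01, 13.03 and 12.83 (log2 fold change -0.25, SE 0.14, adjusted p = 0.341). GATA2 read 13.23, 13.58 and 13.29 against 13.29, 13.24 and 13.15 (log2 fold change 0.14, SE 0.14, adjusted p = 0.725). These 3 sympathoadrenal markers were bright in all 6 arrays and did not pass.

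The adrenergic factors above BE(2)-C in Kelly ranged from under 2-fold to 47.1-fold. SOX11, a factor of immature neurons, read 4.07, 4.31 and 4.49 in BE(2)-C and 9.97, 10.05 and 9.53 in Kelly (log2 fold change -5.56, SE 0.19, adjusted p = 1.24e-09). LMO1, a co-factor tied to neuroblastoma risk, read 5.81, 5.53 and 5.39 against 7.83, 7.81 and 7.41 (-2.11), and LMO3 read 5.43, 5.76 and 5.77 against 8.94, 8.69 and 7.49 (-2.72, probe set mean -1.60). None of the 3 had overlapping arrays. INSM1, a zinc finger factor of neuroendocrine cells, was dim in BE(2)-C and read 5.59, 6.04 and 5.39 in Kelly (-1.43). GATA3 was higher in Kelly with all arrays (log2 fold change -0.59, SE 0.15, adjusted p = 0.0149), a call lost without BE(2)-C replicate 1 or without Kelly replicate 1 or 2, adjusted p up to 0.0655. ISL1 (-0.75, adjusted p = 0.0143) was lost without Kelly replicate 1 or 2, adjusted p up to 0.0696. MEIS1 (-1.12, adjusted p = 0.0432) was lost without BE(2)-C replicate 1 or 3 or without Kelly replicate 1 or 2, adjusted p up to 0.157, and without BE(2)-C replicate 1 its value was -0.73. SIX3, an eye and forebrain factor, was the member higher in BE(2)-C (log2 fold change 1.11, SE 0.15, adjusted p = 0.000221). With the 6 DMSO arrays fitted alone 4 members were higher in Kelly.

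SOX genes split between the lines, 3 of 19 higher in each (15.8%, where 7.20% and 7.89% of all genes were). SOX18, a factor of vessel-lining cells, read 8.71, 9.04 and 8.90 in BE(2)-C and 4.98, 4.99 and 5.17 in Kelly (log2 fold change 3.84, SE 0.22, adjusted p = 1.14e-07). Its relative SOX7 read 7.40, 8.04 and 8.35 against 5.09, 5.63 and 5.30 (log2 fold change 2.59, SE 0.29, adjusted p = 4.25e-05, probe set mean 1.64). The lines did not overlap for either gene. SOX9, a factor of neural crest and glia, was higher in Kelly (log2 fold change -1.05, SE 0.21, adjusted p = 0.0033). SOX4 was higher in BE(2)-C by 0.77 (adjusted p = 0.0339) and SOX12 in Kelly (-0.53, adjusted p = 0.0223). The call of SOX4 was lost without BE(2)-C replicate 1 or 2 or without Kelly replicate 1 or 2, adjusted p up to 0.135, and that of SOX12 was lost without BE(2)-C replicate 1 or 3 or without Kelly replicate 1 or 3, adjusted p up to 0.0824.

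Mesenchymal transcription factors were mixed, 2 of 21 higher in each line (9.52% in each direction). SNAI2, the Slug repressor of epithelial genes, read 8.01, 8.77 and 8.62 in BE(2)-C and 5.42, 5.75 and 5.21 in Kelly (log2 fold change 3.01, SE 0.24, adjusted p = 1.83e-06). IRF2 was also higher in BE(2)-C (1.10, adjusted p = 0.0057). TEAD2, a partner of YAP, read 6.17, 6.49 and 6.31 against 8.66, 8.67 and 8.0 and was higher in Kelly (log2 fold change -2.12, SE 0.23, adjusted p = 3.13e-05, probe set mean -0.81). TWIST1 was bright in both lines and slightly higher in Kelly (-0.52, adjusted p = 0.0265), a call lost without BE(2)-C replicate 2 or 3 or without Kelly replicate 1 or 3, adjusted p up to 0.126, and lost with the ACTB covariate. PRRX1, a defining mesenchymal factor, was dim in every array (5.36, 4.86 and 4.82 in BE(2)-C and 4.92, 4.84 and 5.10 in Kelly).

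The HOX clusters, which set position along the body axis, differed at few genes. HOXD13, the most 5' gene of its cluster, read 5.79, 5.23 and 5.18 in BE(2)-C and 8.08, 7.92 and 7.40 in Kelly (log2 fold change -2.40, SE 0.23, adjusted p = 1.16e-05). HOXC10 went the other way, with 7.64, 7.74 and 7.87 against 6.06, 5.91 and 6.52 (log2 fold change 1.59, SE 0.26, adjusted p = 0.000841). The arrays of the lines did not overlap for either. HOXC4 (-0.77) and HOXC9 (-0.73) passed as higher in Kelly with all arrays. HOXC4 was lost without BE(2)-C replicate 2 or 3 or without Kelly replicate 3, adjusted p up to 0.0989. HOXC9 was lost without BE(2)-C replicate 2 or 3 or without Kelly replicate 1, 2 or 3, adjusted p up to 0.136. None of 10 HOXB genes passed, and the other 6 of 7 HOXD genes and 6 of 9 HOXC genes did not. Only 1 of 11 HOXA genes was measured, and it did not pass, so that cluster was hardly read. Over the alternatives up to 5 HOXD genes were higher in Kelly.

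TH, DDC and DBH were bright in both lines. Of 12 measured members 2 were higher in BE(2)-C, 3 in Kelly and 7 did not pass (median 0.08). TH, the rate-limiting enzyme of catecholamine synthesis, read 9.42, 9.45 and 9.23 in BE(2)-C and 9.53, 9.24 and 8.99 in Kelly (log2 fold change 0.11, SE 0.21, adjusted p = 0.889), and these arrays overlapped. DBH, which turns dopamine into noradrenaline, read 11.19, 10.38 and 10.33 against 12.17, 11.77 and 12.44 (log2 fold change -1.49, SE 0.25, adjusted p = 0.0011) and did not overlap. MAOA, the monoamine oxidase that degrades noradrenaline, had the largest difference of the list, with 6.07, 5.64 and 5.63 against 11.86, 12.02 and 11.06 (log2 fold change -5.87, SE 0.27, adjusted p = 1.42e-08, 58.4-fold).

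The vesicular transporter SLC18A2 was higher in Kelly (10.80, 11.16 and 9.43) than in BE(2)-C (7.77, 8.96 and 9.13), and the lines did not overlap (log2 fold change -1.85, SE 0.45, adjusted p = 0.0136). That call was lost without Kelly replicate 1 or 2, adjusted p up to 0.0614. CYB561, the vesicle cytochrome that supplies electrons to DBH, was higher in BE(2)-C (log2 fold change 0.85, SE 0.18, adjusted p = 0.0051; not past the threshold with the ACTB covariate), as was GCH1, which makes the cofactor of TH (0.62, adjusted p = 0.0201; lost without BE(2)-C replicate 1 or 2 or without Kelly replicate 1 or 2, adjusted p up to 0.0817). DDC, the decarboxylase between TH and DBH, did not pass (log2 fold change 0.12, SE 0.17, adjusted p = 0.838).

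Granins and peptide-processing proteins, the cargo of dense-core vesicles, were mostly higher in BE(2)-C, 5 of 9 (55.6%) with 1 higher in Kelly (11.1%, median 0.76). Of all genes 7.20% and 7.89% were. SCG2, secretogranin II, read 11.95, 12.16 and 12.19 in BE(2)-C and 8.81, 9.02 and 7.89 in Kelly (log2 fold change 3.52, SE 0.24, adjusted p = 4.85e-07). VGF, a granin-like precursor induced by nerve growth factor, read 10.09, 9.93 and 10.31 against 7.92, 8.06 and 7.44 (log2 fold change 2.30, SE 0.18, adjusted p = 2.17e-06). PCSK1N, an inhibitor of a prohormone convertase, read 8.88, 8.22 and 8.22 against 6.80, 6.59 and 7.48 (1.48, adjusted p = 0.001). The lines were apart in every array for these 3 genes. CHGB (0.72) and SCG3 (0.80) were higher by smaller steps. CHGB was lost without BE(2)-C replicate 2 or 3 or without Kelly replicate 3, adjusted p up to 0.0815, and SCG3 was lost without Kelly replicate 1, adjusted p = 0.0524. With the ACTB covariate neither passed and the list held 3 genes higher in each line. CPE, the carboxypeptidase that trims peptide precursors, ran against the list, with 5.28, 5.69 and 5.54 against 9.65, 9.69 and 9.63 (log2 fold change -4.16, SE 0.20, adjusted p = 1.77e-08). CHGA, the marker granin, was bright in both lines and did not pass (log2 fold change -0.43, SE 0.14, adjusted p = 0.0589).

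**Figure D3:**
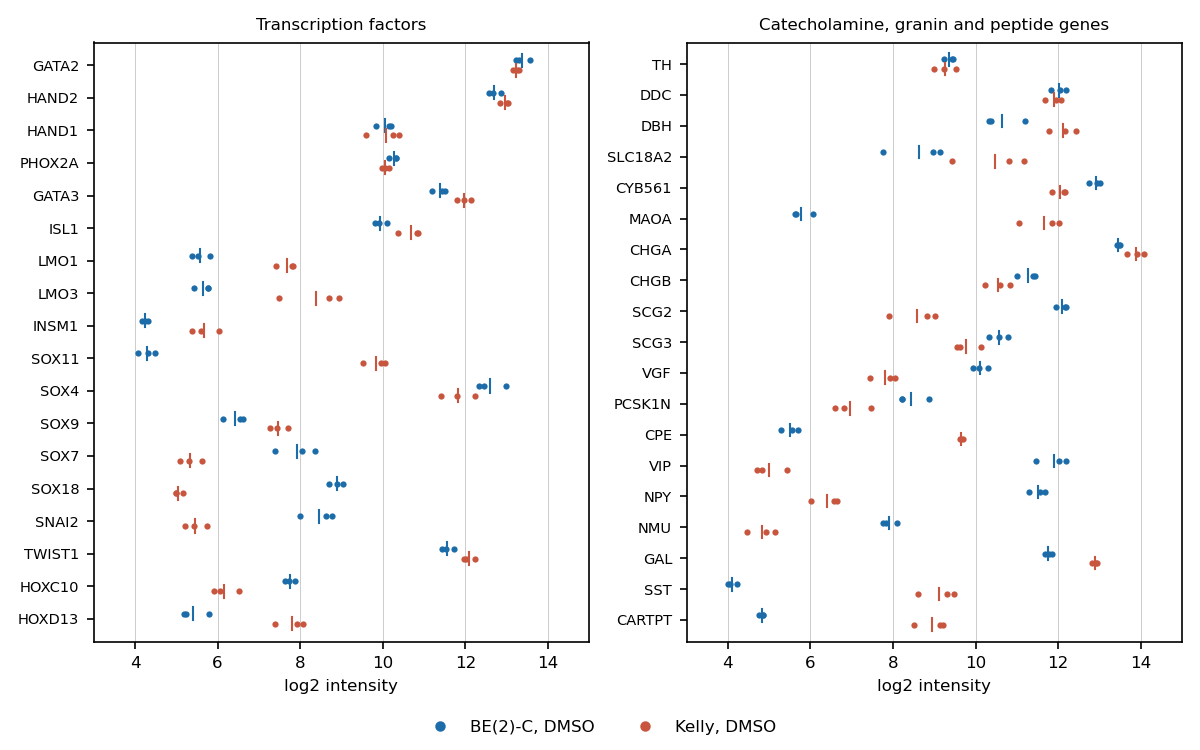
Log2 intensity (x axis) in each DMSO array of transcription factors (left) and of catecholamine, granin and peptide genes (right); points are arrays, ticks are means of 3. GATA2, HAND2, PHOX2A, TH and DDC lie together in both lines, whereas SOX11, MAOA, CPE, SST and CARTPT are high in Kelly and SOX18, SNAI2, SCG2, VIP and NPY in BE(2)-C.

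Of 41 measured peptide precursors 4 were higher in BE(2)-C and 6 in Kelly (9.76% and 14.6%, where 7.20% and 7.89% of all genes were), and 31 did not pass (median 0.02). Promoter stretches of 5 of these vesicle genes are given first, because SST and CARTPT stand high in Kelly and VIP, NPY and VGF in BE(2)-C. They are RefSeq sequence of GRCh38.p14, the 150 bases before the start, with each TGACG or its reverse complement CGTCA in capitals; both together make TGACGTCA, the palindromic cyclic AMP response element. Coordinates and strands are chr3:187670395-187670544 (minus) for SST, chr5:71719125-71719274 (plus) for CARTPT, chr7:101165570-101165719 (minus) for VGF, chr7:24284040-24284189 (plus) for NPY and chr6:152750647-152750796 (plus) for VIP.
SST: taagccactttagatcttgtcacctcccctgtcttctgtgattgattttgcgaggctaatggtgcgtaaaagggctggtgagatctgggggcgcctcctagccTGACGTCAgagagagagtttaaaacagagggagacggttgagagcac
CARTPT: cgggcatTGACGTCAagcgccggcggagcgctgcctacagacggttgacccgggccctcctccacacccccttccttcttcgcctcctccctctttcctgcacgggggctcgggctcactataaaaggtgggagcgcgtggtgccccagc
VGF: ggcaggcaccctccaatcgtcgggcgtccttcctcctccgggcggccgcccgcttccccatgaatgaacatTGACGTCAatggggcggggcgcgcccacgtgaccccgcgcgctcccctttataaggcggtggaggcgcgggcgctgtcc
NPY: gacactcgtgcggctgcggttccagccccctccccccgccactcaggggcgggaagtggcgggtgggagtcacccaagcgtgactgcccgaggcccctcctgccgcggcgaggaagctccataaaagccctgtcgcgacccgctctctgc
VIP: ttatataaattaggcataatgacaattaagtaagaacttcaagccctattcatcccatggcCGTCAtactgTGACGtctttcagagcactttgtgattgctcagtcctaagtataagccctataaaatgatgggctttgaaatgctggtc

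TGACGTCA began 47 bases before the start in SST, 143 in CARTPT and 79 in VGF. It was found in the 250 bases before the start of 1.65% of 35116 promoters, and in 2 of the 33 peptide precursor genes with a promoter entry, SST and CARTPT. TGACG or CGTCA, within TGACGTCA or apart from it, was found in 21.2% of the promoters. The genes with TGACGTCA here were higher in Kelly (SST, CARTPT) and in BE(2)-C (VGF). These matches describe letters only, and binding was not measured.

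Among the peptides of BE(2)-C, NPY, the neuropeptide Y co-released with noradrenaline, read 11.69, 11.56 and 11.28 against 6.64, 6.58 and 6.01 in Kelly (log2 fold change 5.10, SE 0.19, adjusted p = 4.27e-09). NMU, neuromedin U, read 7.75, 8.09 and 7.83 against 4.91, 4.46 and 5.14 (log2 fold change 3.06, SE 0.21, adjusted p = 6.80e-07). CALCB, a form of calcitonin gene-related peptide, read 5.86, 6.03 and 6.39 against 4.87, 4.79 and 4.48 (1.38, probe set mean 0.59, adjusted p = 0.000341). Together with VIP these are the precursors higher in BE(2)-C, and none had overlapping arrays.

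Among the peptides of Kelly, SST, somatostatin, an inhibitor of hormone release, read 4.06, 4.22 and 4.0 in BE(2)-C and 9.30, 9.47 and 8.60 in Kelly (log2 fold change -5.03, SE 0.28, adjusted p = 6.89e-08, 32.7-fold). CARTPT, the cocaine- and amphetamine-regulated transcript, read 4.85, 4.85 and 4.75 against 9.14, 9.20 and 8.50 (log2 fold change -4.13, SE 0.18, adjusted p = 9.87e-09). Both were dim in BE(2)-C. GAL, galanin, was bright in both lines and read 11.67, 11.78 and 11.85 against 12.94, 12.93 and 12.83 (log2 fold change -1.13, SE 0.14, adjusted p = 0.000104). NMB (-1.29), TAC3 (-0.99) and NTS (-0.53) complete the Kelly side with differences of under 3-fold.

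Receptors for peptides, amines and lipids were called near the background rates, 9 of 75 higher in BE(2)-C (12%) and 5 in Kelly (6.67%), with a median of 0.00. PTGER2, a prostaglandin E2 receptor that raises cyclic AMP, read 10.08, 9.99 and 10.09 in BE(2)-C and 4.57, 4.63 and 5.42 in Kelly (log2 fold change 5.18, SE 0.21, adjusted p = 6.17e-09). LGR5, a receptor for R-spondins, read 7.44, 8.39 and 8.89 against 4.37, 4.40 and 4.04 (log2 fold change 3.97, SE 0.37, adjusted p = 9.14e-06, probe set mean 2.30). NPY2R, a receptor for neuropeptide Y, read 8.10, 8.54 and 9.02 against 5.15, 5.21 and 4.67 (log2 fold change 3.54, SE 0.26, adjusted p = 9.21e-07, probe set mean 2.0). The line with the higher NPY level thus also had the higher NPY2R level, and NPY1R was dim, at 4.42, 4.09 and 3.84 in BE(2)-C and 4.08, 3.86 and 4.26 in Kelly.

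HTR2B, a serotonin receptor, was higher in BE(2)-C but spread widely there (5.39, 7.72 and 7.74, against 3.80, 3.80 and 4.42; log2 fold change 2.94, SE 0.48, adjusted p = 0.00084). EDNRB, the endothelin receptor of neural crest cells, was higher in Kelly, with 4.81, 4.45 and 4.64 against 7.19, 7.44 and 7.45 (log2 fold change -2.72, SE 0.19, adjusted p = 7.02e-07, probe set mean -1.53). Its arrays did not overlap. The VIP receptors VIPR1 (-0.11, adjusted p = 0.919) and VIPR2 (-0.37, adjusted p = 0.391) did not pass. Nor did the somatostatin receptors SSTR1 (-0.20), SSTR2 (0.66), SSTR3 (-0.14), SSTR4 (-0.14) and SSTR5 (0.24), of which SSTR2 had the lowest adjusted p (0.115).

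Receptor tyrosine kinases differed in 11 of 35 members, 7 higher in BE(2)-C and 4 in Kelly (11.4%). ALK, a kinase mutated in some neuroblastomas, read 6.51, 6.30 and 6.37 in BE(2)-C and 8.06, 8.33 and 7.02 in Kelly (log2 fold change -1.41, SE 0.27, adjusted p = 0.0027). MET, the receptor of hepatocyte growth factor, read 4.74, 3.95 and 4.16 against 7.81, 8.41 and 6.74 (log2 fold change -3.37, SE 0.35, adjusted p = 2.34e-05). FGFR2 read 5.22, 5.26 and 5.14 against 7.84, 8.14 and 6.94 (log2 fold change -2.43, SE 0.28, adjusted p = 5.73e-05). In these 3 kinases of the Kelly side no array of BE(2)-C reached the lowest Kelly array. The mean over probe sets was smaller for MET (-0.83 over 6) and FGFR2 (-0.72 over 12).

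On the BE(2)-C side, ROR2, a WNT5A receptor, read 9.15, 9.51 and 9.79 against 6.87, 7.25 and 6.23 (log2 fold change 2.70, SE 0.24, adjusted p = 6.01e-06). INSR, the insulin receptor, read 6.52, 7.82 and 7.87 against 4.67, 4.42 and 5.34 (log2 fold change 2.59, SE 0.36, adjusted p = 0.000254, probe set mean 1.51). TYRO3, a receptor for GAS6 and protein S, read 9.11, 9.05 and 8.98 against 7.59, 7.24 and 7.17 (log2 fold change 1.71, SE 0.19, adjusted p = 4.30e-05, probe set mean 1.09). All 3 were apart in every array. EGFR (1.17), LTK (1.13), FGFR1 (0.95) and RET (0.87) passed with differences of about 2-fold.

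Of 39 growth factor genes 3 were higher in BE(2)-C (7.69%, near the 7.20% of all genes), 6 in Kelly (15.4%, where 7.89% of all genes were) and 30 did not pass. The heparin-binding pair of midkine and pleiotrophin was exchanged between the lines. MDK, midkine, read 7.97, 7.97 and 7.61 in BE(2)-C and 11.63, 11.42 and 11.11 in Kelly (log2 fold change -3.54, SE 0.26, adjusted p = 8.80e-07). PTN, pleiotrophin, read 9.84, 10.22 and 10.04 against 6.94, 7.38 and 6.65 (log2 fold change 3.04, SE 0.25, adjusted p = 3.13e-06). Every probe set of both genes passed, 4 of MDK and 2 of PTN. KITLG, the ligand of KIT, read 5.74, 5.60 and 5.38 against 9.21, 9.73 and 9.75 (log2 fold change -3.99, SE 0.17, adjusted p = 9.71e-09, probe set mean -1.18), and 1 of its 4 probe sets passed. BDNF, a neurotrophin, read 5.39, 5.24 and 5.45 against 8.14, 8.25 and 7.43 (log2 fold change -2.58, SE 0.24, adjusted p = 8.78e-06, probe set mean -1.57). The receptor genes were dim in both lines, KIT at 4.90, 4.54 and 4.59 in BE(2)-C and 4.30, 4.46 and 5.43 in Kelly and NTRK2 at 5.11, 4.60 and 4.55 and 4.70, 4.55 and 5.12, and neither passed.

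Matrix genes did not move together. Of 43 collagen chains 3 were higher in BE(2)-C and 4 in Kelly (6.98% and 9.30%, median -0.03), of 39 matrix glycoproteins 2 and 5, and of 14 laminins and basement membrane genes 2 and 1. LAMA1, the laminin alpha-1 chain of embryonic basement membrane, read 4.61, 4.51 and 4.42 in BE(2)-C and 10.03, 9.93 and 9.75 in Kelly (log2 fold change -5.39, SE 0.25, adjusted p = 1.71e-08). FN1, fibronectin, read 5.73, 6.02 and 6.61 against 9.01, 8.81 and 8.87 (log2 fold change -2.78, SE 0.21, adjusted p = 1.47e-06, probe set mean -1.25). FBLN1, fibulin-1, read 6.06, 6.88 and 6.87 against 9.24, 9.42 and 8.57 (log2 fold change -2.47, SE 0.28, adjusted p = 5.16e-05, probe set mean -1.08). These lay in the same line as PLOD2, and none overlapped.

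THBS2, thrombospondin-2, was higher in Kelly with a wide spread (3.72, 3.69 and 3.86 against 7.04, 7.70 and 5.34; log2 fold change -2.94, SE 0.42, adjusted p = 0.0003, probe set mean -1.67). COL4A2 (-1.39), COL6A6 (-1.68), COL6A3 (-1.01) and COL9A1 (-0.93, probe set mean -0.53) were the collagen chains higher in Kelly, each under 4-fold, and the call of COL9A1 was lost without BE(2)-C replicate 3 or without Kelly replicate 1, 2 or 3, adjusted p up to 0.131. COL3A1 (0.74, probe set mean 0.29; lost without BE(2)-C replicate 2, adjusted p = 0.0546) and COL9A3 (0.69; lost without BE(2)-C replicate 1 or 3 or without Kelly replicate 2, adjusted p up to 0.0579) were higher in BE(2)-C at low levels, and COL3A1 was not called with the probe set mean. Beside RELN, MFAP4, a microfibril-associated protein, was the glycoprotein higher in BE(2)-C, with 7.68, 7.72 and 7.92 against 6.27, 5.51 and 6.09 (log2 fold change 1.82, SE 0.19, adjusted p = 2.73e-05). LAMC1 (0.55) and NID2 (0.93, probe set mean 0.54) were higher in BE(2)-C by under 2-fold, LAMC1 being lost without BE(2)-C replicate 2 or 3 or without Kelly replicate 3, adjusted p up to 0.116. COL1A1, the main chain of fibroblast matrix, was dim and did not pass (log2 fold change -0.22, SE 0.25, adjusted p = 0.774).

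Of 25 proteoglycans 3 were higher in BE(2)-C, 6 in Kelly and 16 did not pass. SPOCK1, testican-1, read 4.64, 5.52 and 5.54 in BE(2)-C and 9.34, 9.85 and 8.13 in Kelly (log2 fold change -3.87, SE 0.39, adjusted p = 1.77e-05). VCAN, versican, read 7.11, 7.66 and 7.69 against 10.27, 10.59 and 9.78 (log2 fold change -2.73, SE 0.25, adjusted p = 8.22e-06). FMOD, fibromodulin, read 5.47, 5.08 and 5.27 against 9.34, 9.09 and 8.25 (log2 fold change -3.62, SE 0.31, adjusted p = 3.59e-06, probe set mean -1.38). These were the proteoglycans furthest above BE(2)-C, with no overlap. The small leucine-rich members DCN (6.85, 6.67 and 7.01 against 4.83, 4.52 and 5.22; log2 fold change 1.99, SE 0.20, adjusted p = 1.89e-05, probe set mean 1.25) and LUM (4.79, 6.53 and 7.12 against 3.53, 3.77 and 3.77; log2 fold change 2.45, SE 0.42, adjusted p = 0.0013) lay on the other side. FMOD belongs to the same protein family, so that family was split. GPC2, a glypican studied as a neuroblastoma surface target, was higher in Kelly (log2 fold change -1.03, SE 0.16, adjusted p = 0.00065).

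Proteases and inhibitors were also split, 5 of 36 higher in BE(2)-C (13.9%) and 6 in Kelly (16.7%). MMP2, a gelatinase, read 10.35, 10.83 and 10.65 in BE(2)-C and 9.07, 9.21 and 8.40 in Kelly (log2 fold change 1.72, SE 0.22, adjusted p = 0.000114). TIMP1, an inhibitor of such enzymes, was higher in the same line (log2 fold change 1.54, SE 0.26, adjusted p = 0.0011, probe set mean 0.92). ADAMTS4, an aggrecanase, read 5.44, 5.86 and 6.04 against 8.75, 8.88 and 9.09 (log2 fold change -3.12, SE 0.23, adjusted p = 1.19e-06, probe set mean -1.45), whereas ADAMTS1 (1.40) and ADAMTS3 (1.51) were higher in BE(2)-C. SERPINE2, the thrombin inhibitor protease nexin-1, read 6.72, 6.44 and 6.36 against 8.81, 8.62 and 9.07 (log2 fold change -2.33, SE 0.16, adjusted p = 4.80e-07, probe set mean -1.54). The lines did not overlap for any of these 6. With the mean of probe sets 8 members were higher in BE(2)-C and 3 in Kelly.

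Adhesion receptors were split as well. Integrin chains ITGA1 (1.75), ITGA9 (1.60, probe set mean 0.70), ITGA8 (1.21) and ITGB5 (0.67) were higher in BE(2)-C and ITGA4 (-1.83, probe set mean -0.75) and ITGA6 (-1.34, probe set mean -0.89) in Kelly, 6 of 19 in all. Their shares were 21.1% and 10.5%, where 7.20% and 7.89% of all genes were. ITGA9 was lost without BE(2)-C replicate 2 or 3 or without Kelly replicate 3, adjusted p up to 0.069, and ITGB5 was lost without BE(2)-C replicate 2, adjusted p = 0.0516. The collagen-binding ITGA1 read 6.35, 7.14 and 7.14 in BE(2)-C and 5.02, 5.26 and 5.10 in Kelly (adjusted p = 0.000156). CDH11, a mesenchymal cadherin, read 7.76, 8.14 and 8.01 against 10.0, 10.07 and 10.02 (log2 fold change -2.06, SE 0.19, adjusted p = 5.94e-06, probe set mean -0.96). CDH10 was higher in BE(2)-C (log2 fold change 1.27, SE 0.34, adjusted p = 0.0228), but its arrays overlapped and the call was lost without BE(2)-C replicate 2 or 3 or without Kelly replicate 1, adjusted p up to 0.107. CDH2, N-cadherin, was bright in both lines and did not pass (log2 fold change -0.26, SE 0.45, adjusted p = 0.882); 15 of 17 cadherins did not.

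Axon guidance genes passed in 13 of 45 members, 5 higher in BE(2)-C (11.1%) and 8 in Kelly (17.8%). UNC5C, a netrin receptor, read 6.46, 5.42 and 5.23 in BE(2)-C and 8.91, 8.97 and 8.66 in Kelly (log2 fold change -3.14, SE 0.34, adjusted p = 2.79e-05, probe set mean -1.06), and its other probe set passed in the opposite direction, so the gene's direction is uncertain. ROBO2, a SLIT receptor, read 4.76, 5.86 and 6.10 against 7.56, 7.92 and 7.98 (log2 fold change -2.24, SE 0.31, adjusted p = 0.000251). Its ligand SLIT2 was higher in the same line (-1.62, adjusted p = 0.0016). PLXNA4 (9.63, 9.19 and 9.44 against 6.88, 7.17 and 7.82; log2 fold change 2.13, SE 0.23, adjusted p = 2.95e-05, probe set mean 1.21) and NRP1 (9.15, 10.06 and 10.0 against 8.06, 8.63 and 6.91; log2 fold change 1.87, SE 0.39, adjusted p = 0.0054, probe set mean 1.09), which form receptors for class 3 semaphorins, were higher in BE(2)-C, NRP1 not with the ACTB covariate. Of 21 Eph receptors and ephrins 4 were higher in Kelly and 0 in BE(2)-C. These were EFNA4 (-1.65), EPHB3 (-1.33), EFNB3 (-1.23, probe set mean -0.53) and EFNA1 (-1.21, probe set mean -0.79), all within 4-fold, and EPHB3 was not called with the ACTB covariate. With the control signal as a covariate 2 members were higher in BE(2)-C.

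Of 24 mesenchymal and fibroblast markers 8 were higher in BE(2)-C (33.3%, where 7.20% of all genes were) and 0 in Kelly, with 16 not past the threshold and a median of 0.05. S100A6, calcyclin, read 11.54, 11.61 and 12.14 in BE(2)-C and 5.81, 5.46 and 6.70 in Kelly (log2 fold change 5.77, SE 0.28, adjusted p = 1.77e-08, 54.6-fold). S100A11 read 9.28, 10.26 and 10.28 against 4.60, 4.27 and 4.82 (log2 fold change 5.38, SE 0.26, adjusted p = 2.20e-08). LGALS1, the lectin galectin-1, read 12.63, 11.99 and 11.97 against 8.06, 7.65 and 8.44 (log2 fold change 4.14, SE 0.26, adjusted p = 2.43e-07). ANXA2, a membrane-binding annexin that pairs with an S100 protein, read 11.77, 12.22 and 12.13 against 9.06, 9.05 and 8.18 (log2 fold change 3.27, SE 0.35, adjusted p = 2.79e-05), and a near-identical pseudogene may share its signal. No array of Kelly reached the lowest BE(2)-C array in these 4 genes. VIM, vimentin, was bright in both lines and higher in BE(2)-C (log2 fold change 1.62, SE 0.32, adjusted p = 0.0035), and THY1 (log2 fold change 2.41, SE 0.31, adjusted p = 0.000128) completed the members besides DCN and LUM. The count was 8 also without the pair of arrays with the highest control signal.

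The mean level over the 24 mesenchymal markers was 6.82 to 6.98 in the BE(2)-C arrays and 5.59 to 5.99 in the Kelly arrays. With a list median difference of 0.05, this gap rests largely on the 8 genes that passed and does not describe the whole list. FN1 (-2.78) and CDH11 (-2.06) are not in the list and were higher in Kelly. The mean levels of markers of other cell types overlapped between the lines. The 13 haematopoietic and endothelial markers averaged 5.04 to 5.60 in BE(2)-C and 4.98 to 5.69 in Kelly, with 0 past the threshold. The 12 epithelial markers averaged 5.38 to 5.76 and 5.26 to 5.71, with KRT19 higher in BE(2)-C (log2 fold change 0.96, SE 0.20, adjusted p = 0.0051). The 9 Schwann cell markers averaged 5.35 to 5.52 and 5.32 to 5.55, with S100B higher in BE(2)-C (1.67, probe set mean 0.91) and SOX9 in Kelly. PTPRC, the defining gene of white blood cells, read 4.12, 3.94 and 3.89 in BE(2)-C and 3.98, 3.86 and 4.29 in Kelly, near the background controls. The labelled neuroblastoma identity was matched in both lines by bright PHOX2A, HAND2, GATA3, TH, DBH, CHGA and CHGB.

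Genes studied as surface targets in neuroblastoma passed in 10 of 18 members, 7 higher in BE(2)-C (38.9%) and 3 in Kelly (16.7%, median 0.40). Of all genes 7.20% and 7.89% were. CD24, a mucin-like glycoprotein, read 8.49, 8.83 and 9.04 in BE(2)-C and 12.51, 12.46 and 12.21 in Kelly (log2 fold change -3.61, SE 0.17, adjusted p = 1.70e-08). L1CAM, a neural adhesion protein, read 12.59, 11.96 and 11.89 against 10.27, 10.21 and 10.66 (log2 fold change 1.77, SE 0.21, adjusted p = 6.57e-05, probe set mean 1.08). ALCAM read 12.08, 11.99 and 12.02 against 10.43, 10.53 and 10.71 (log2 fold change 1.47, SE 0.14, adjusted p = 8.65e-06, probe set mean 2.24). PVR, the poliovirus receptor, was higher in BE(2)-C (log2 fold change 1.62, SE 0.18, adjusted p = 4.42e-05, probe set mean 0.80). All 4 had separate arrays. CD276, a checkpoint protein, and NCAM1 did not pass (-0.30 and 0.32, adjusted p = 0.524 and 0.2).

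Class I antigen presentation was higher in BE(2)-C in 4 of 18 members (22.2%, where 7.20% of all genes were), with 0 higher in Kelly. TAP2, a subunit of the peptide transporter into the endoplasmic reticulum, read 9.49, 8.13 and 8.34 in BE(2)-C and 5.55, 5.30 and 6.32 in Kelly (log2 fold change 2.93, SE 0.34, adjusted p = 4.87e-05, probe set mean 1.94). TAPBP, tapasin, read 8.20, 8.43 and 8.37 against 6.54, 6.61 and 7.04 (log2 fold change 1.60, SE 0.22, adjusted p = 0.000199). B2M, the light chain of class I molecules, was bright in both and read 13.69, 13.48 and 13.48 against 12.38, 12.18 and 12.37 (log2 fold change 1.24, SE 0.15, adjusted p = 6.32e-05). These did not overlap. With the mean of its 5 probe sets TAPBP stood at 0.44 and was not called. HLA-C passed too (0.98, probe set mean 0.63, adjusted p = 0.0223), lost without BE(2)-C replicate 2 or 3 or without Kelly replicate 1, 2 or 3, adjusted p up to 0.104. HLA genes are near-identical and may share probes. TAP1, the partner of TAP2, did not pass (log2 fold change -0.04, SE 0.22, adjusted p = 0.973). Of 27 interferon genes 2 passed, IFIT2 (0.85, probe set mean 0.49) and IFI16 (0.62), both higher in BE(2)-C at low levels, IFI16 being lost without BE(2)-C replicate 1, 2 or 3 or without Kelly replicate 1 or 2, adjusted p up to 0.177.

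Cancer-testis antigens, germ-line genes that tumours can re-express, were higher in Kelly in 7 of 23 members (30.4%, where 7.89% of all genes were) and in BE(2)-C in 0. PRAME read 5.28, 6.83 and 7.06 in BE(2)-C and 11.27, 11.53 and 10.57 in Kelly (log2 fold change -4.73, SE 0.42, adjusted p = 5.94e-06). MAGEA10 read 6.34, 5.21 and 5.32 against 10.07, 10.01 and 9.97 (log2 fold change -4.39, SE 0.26, adjusted p = 1.56e-07). MAGEA12 read 3.66, 3.40 and 3.29 against 7.39, 7.39 and 8.53 (log2 fold change -4.32, SE 0.31, adjusted p = 8.06e-07). MAGEA1 read 4.91, 4.50 and 4.60 against 9.05, 9.73 and 7.16 (log2 fold change -3.98, SE 0.50, adjusted p = 0.00011). The BE(2)-C arrays lay below every Kelly array in all 4, but MAGEA genes are near-identical and their signals may be shared. PAGE1 (-2.16), TEX15 (-2.13, probe set mean -1.14) and CTAG2 (-1.87) followed with smaller differences.

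Imprinted genes passed in 4 of 20 members. GRB10, an adaptor that restrains insulin receptor signalling, read 5.14, 5.06 and 5.57 in BE(2)-C and 9.62, 9.73 and 8.72 in Kelly (log2 fold change -4.10, SE 0.27, adjusted p = 4.04e-07, probe set mean -2.40). PEG3 read 4.51, 4.24 and 3.85 against 6.88, 7.49 and 6.66 (log2 fold change -2.81, SE 0.26, adjusted p = 6.66e-06, probe set mean -1.03). Both were higher in Kelly without overlap, as was MKRN3 (-1.66, probe set mean -0.89), while NDN was higher in BE(2)-C (0.66; lost without BE(2)-C replicate 3 or without Kelly replicate 2, adjusted p up to 0.0813). INSR, whose signal GRB10 restrains, was higher in BE(2)-C as given above.

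Of 34 genes often silenced by methylation in tumours 4 were higher in BE(2)-C (11.8%) and 1 in Kelly (2.94%), where 7.20% and 7.89% of all genes were. CDKN2A, the locus of the p16 cell cycle inhibitor, read 10.38, 9.96 and 10.02 in BE(2)-C and 7.58, 7.09 and 7.63 in Kelly (log2 fold change 2.69, SE 0.24, adjusted p = 5.61e-06), from 1 of 3 probe sets, with 1.06 for their mean. CASP8, the initiator caspase often silenced in neuroblastoma, read 5.05, 4.95 and 4.67 against 4.75, 4.60 and 4.85 (log2 fold change 0.15, SE 0.18, adjusted p = 0.777), low in both lines and overlapping. RASSF2 was the member higher in Kelly (-2.0, probe set mean -0.99). SFRP1 (1.10), TFPI2 (0.98, probe set mean 0.62) and DAPK1 (0.85, probe set mean 0.24) were the others higher in BE(2)-C, SFRP1 and DAPK1 not with the ACTB covariate, and SFRP1 was lost without BE(2)-C replicate 2, adjusted p = 0.0502. With the probe set mean DAPK1 did not pass. Methylation itself was not measured.

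In the death receptor pathway, TNFRSF10B, a receptor for the ligand TRAIL, read 5.51, 5.23 and 5.21 in BE(2)-C and 9.49, 9.52 and 8.95 in Kelly (log2 fold change -4.0, SE 0.22, adjusted p = 7.04e-08, probe set mean -1.53). CFLAR, the inhibitor of CASP8, was higher in BE(2)-C (log2 fold change 0.89, SE 0.25, adjusted p = 0.0287), a call lost without BE(2)-C replicate 2 or 3 or without Kelly replicate 1 or 3, adjusted p up to 0.125. The other 11 of 13 members did not pass. Of 16 BCL2 family genes HRK (-1.47) and BBC3 (-1.25, probe set mean -0.72; not called with that mean), which code for killer proteins, were higher in Kelly, and BCL2L11 in BE(2)-C (0.68, probe set mean 0.05, adjusted p = 0.0335, lost without BE(2)-C replicate 2 or 3 or without Kelly replicate 1 or 3, adjusted p up to 0.152, and not called with the probe set mean).

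Target genes of p53, the stress-induced activator of cell cycle arrest and death, stood higher in Kelly in 13 of 25 members (52.0%, where 7.89% of all genes did). The list had 1 member higher in BE(2)-C and a median of -0.76. CDKN1A, the p21 inhibitor of cyclin-dependent kinases, read 7.79, 6.49 and 6.65 in BE(2)-C and 8.85, 8.83 and 8.31 in Kelly (log2 fold change -1.69, SE 0.29, adjusted p = 0.0014). PHLDA3 read 6.58, 5.91 and 5.68 against 8.67, 7.80 and 9.99 (log2 fold change -2.76, SE 0.45, adjusted p = 0.000879, probe set mean -1.51). EDA2R read 4.19, 3.84 and 3.84 against 6.96, 6.74 and 5.90 (log2 fold change -2.58, SE 0.24, adjusted p = 7.75e-06, probe set mean -1.51). The lines were apart in each. PLK2 (-1.93, probe set mean -0.89) and the death genes TNFRSF10B and BBC3 were among the rest, and TP53I3 was the member higher in BE(2)-C (log2 fold change 1.11, SE 0.22, adjusted p = 0.0041). The count on the Kelly side was 11 without the arrays with the highest control signal and 16 with the ACTB covariate.

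MYCN itself was bright in all arrays, with 13.64, 13.53 and 13.52 in BE(2)-C and 13.87, 13.88 and 13.87 in Kelly (log2 fold change -0.31, SE 0.13, adjusted p = 0.145); the lines did not overlap but the difference, 1.24-fold, did not pass. DDX1 (log2 fold change -0.24, SE 0.14, adjusted p = 0.374) and NBAS (log2 fold change -0.54, SE 0.19, adjusted p = 0.0848), neighbours often amplified with MYCN, did not pass either. Of 9 measured genes, MYCN and its neighbours, 3 were higher in Kelly (33.3%, where 7.89% of all genes were) and 0 in BE(2)-C. These were CYRIA (log2 fold change -1.53, SE 0.24, adjusted p = 0.000694, probe set mean -0.77), VSNL1 (log2 fold change -1.49, SE 0.19, adjusted p = 0.000108) and LRATD1 (-1.01, other probe set -0.13). The call of LRATD1 was lost without BE(2)-C replicate 2 or 3 or without Kelly replicate 1 or 3, adjusted p up to 0.111, and with the ACTB covariate. MYC, the relative of MYCN, stood at 4.09, 4.11 and 4.0 in BE(2)-C and 3.93, 3.95 and 4.16 in Kelly, near the background controls.

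LIN28B, an RNA-binding inhibitor of let-7 maturation and a neuroblastoma oncogene, read 9.16, 10.10 and 9.75 in BE(2)-C and 11.06, 11.41 and 10.63 in Kelly (log2 fold change -1.37, SE 0.30, adjusted p = 0.0075). IGF2BP1, an RNA-binding protein of the same programme, read 10.52, 9.98 and 10.30 against 11.76, 11.75 and 12.08 (log2 fold change -1.60, SE 0.17, adjusted p = 3.31e-05). IGF2BP3 was higher in Kelly as well (-0.82). So 3 of 8 members of the LIN28 and let-7 list lay on that side (37.5%, where 7.89% of all genes did) and 0 on the other. Of 12 genes of the MAX network MXI1 was higher in Kelly (-1.01) and MLX in BE(2)-C (0.82). MXI1 was lost without Kelly replicate 1, adjusted p = 0.0552, and MLX was lost without BE(2)-C replicate 2 or 3 or without Kelly replicate 3, adjusted p up to 0.0952.

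Of 32 replication and mitosis genes 4 were higher in BE(2)-C (12.5%, where 7.20% of all genes were) and 0 in Kelly (median 0.20). These were UBE2C (0.93), MCM7 (0.83), CCNB2 (0.80) and TOP2A (0.79), all under 2-fold, CCNB2 being lost without BE(2)-C replicate 2, adjusted p = 0.0559. With the ACTB covariate 3 were higher in BE(2)-C and 4 in Kelly. CCND1, cyclin D1, read 11.24, 12.08 and 12.03 in BE(2)-C and 10.67, 11.01 and 9.95 in Kelly (log2 fold change 1.24, SE 0.28, adjusted p = 0.0081), a call lost with the ACTB covariate and with the DMSO arrays fitted alone. Of 22 cyclins, their kinases and inhibitors and RB and E2F genes 4 were higher in BE(2)-C (18.2%) and 3 in Kelly (13.6%), where 7.20% and 7.89% of all genes were. Besides CCND1 and CDKN2A these include CCND3 (0.93, probe set mean 0.40) on the BE(2)-C side. E2F2 (-1.08, probe set mean -0.65) and CCNE1 (-0.84, probe set mean -0.54, lost without BE(2)-C replicate 1 or 2 or without Kelly replicate 1 or 2, adjusted p up to 0.0868) were higher in Kelly, as was CDKN1A. Of 24 ribosome biogenesis genes 6 were higher in Kelly and 0 in BE(2)-C (median -0.09), led by NOP2 (-1.07), MYBBP1A (-0.89, probe set mean -0.55) and BOP1 (-0.88), each near 2-fold. NOP2 was lost without BE(2)-C replicate 1 or without Kelly replicate 1 or 2, adjusted p up to 0.0675, and BOP1 was lost without BE(2)-C replicate 2 or 3 or without Kelly replicate 1 or 3, adjusted p up to 0.0826.

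Of 27 neuronal structure genes 3 were higher in BE(2)-C (11.1%), 5 in Kelly (18.5%) and 19 did not pass. The light and medium neurofilaments were higher in BE(2)-C, NEFL at 11.91, 12.54 and 12.51 against 10.23, 10.43 and 9.65 (log2 fold change 2.22, SE 0.24, adjusted p = 2.70e-05) and NEFM at 12.08, 12.02 and 12.10 against 9.99, 10.18 and 10.01 (log2 fold change 2.01, SE 0.14, adjusted p = 6.72e-07). The heavy chain NEFH was higher in Kelly, at 8.19, 8.83 and 8.95 in BE(2)-C against 10.75, 10.96 and 10.33 (log2 fold change -2.02, SE 0.21, adjusted p = 2.32e-05). The 3 subunits were apart in every array and every probe set of them passed. ELAVL2, a neuronal RNA-binding protein, read 7.11, 7.54 and 7.82 against 11.13, 11.28 and 11.18 (log2 fold change -3.71, SE 0.20, adjusted p = 4.35e-08). STMN4 (-2.24, probe set mean -1.09) and NES, nestin of neural progenitors (-1.29), were also higher in Kelly.

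Synaptic vesicle genes passed in 11 of 32 members, 6 higher in BE(2)-C (18.8%) and 5 in Kelly (15.6%). RIMS2, an active zone scaffold, read 10.78, 10.28 and 10.64 in BE(2)-C and 8.21, 8.25 and 8.41 in Kelly (log2 fold change 2.28, SE 0.20, adjusted p = 5.32e-06). SYT1, the calcium sensor of release, read 10.92, 11.35 and 11.28 against 9.39, 9.87 and 9.68 (log2 fold change 1.53, SE 0.17, adjusted p = 4.27e-05). CPLX1, a complexin, was also higher in BE(2)-C (1.21). CADPS, which primes dense-core vesicles, was higher in Kelly (log2 fold change -1.53, SE 0.36, adjusted p = 0.0112), a call lost without Kelly replicate 1, adjusted p = 0.053.

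Of 26 calcium and sodium channels 2 were higher in BE(2)-C and 3 in Kelly (7.69% and 11.5%), and of 34 glutamate, GABA and glycine receptors 2 and 4 (5.88% and 11.8%). SCN3B, a sodium channel beta subunit, read 9.31, 9.80 and 9.23 in BE(2)-C and 6.17, 6.40 and 6.68 in Kelly (log2 fold change 3.03, SE 0.26, adjusted p = 4.04e-06). SCN1A, an alpha subunit, read 4.44, 4.09 and 4.20 against 7.09, 8.08 and 8.11 (log2 fold change -3.52, SE 0.28, adjusted p = 2.29e-06). The subunits thus lay on opposite sides without overlap. GABRB1, a GABA-A receptor subunit, read 6.85, 7.93 and 8.17 against 4.48, 4.20 and 4.40 (log2 fold change 3.29, SE 0.29, adjusted p = 5.32e-06, probe set mean 1.78), GRIN3A, an NMDA receptor subunit, was also higher in BE(2)-C (2.55, probe set mean 1.04), and GRIA2, an AMPA receptor subunit, was higher in Kelly, with 5.03, 4.74 and 4.46 against 7.93, 8.93 and 7.60 (log2 fold change -3.41, SE 0.30, adjusted p = 4.45e-06). CACNA2D3 (-2.70, probe set mean -1.64) and CACNA1B (-1.87), of calcium channels, were higher in Kelly. Of 44 potassium channels 2 were higher in BE(2)-C, KCNT1 and KCNJ2 (1.20, probe set mean 0.71), and 4 in Kelly, each under 3-fold (4.55% and 9.09%).

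Genes of the BMP pathway lay on both sides. BMP7, a bone morphogenetic protein, read 4.93, 4.80 and 4.59 in BE(2)-C and 10.76, 10.99 and 10.84 in Kelly (log2 fold change -6.09, SE 0.28, adjusted p = 1.28e-08, 68.2-fold). GDF6 (log2 fold change -2.51, SE 0.33, adjusted p = 0.000152, probe set mean -1.28) and the activin receptor ACVR2B (8.31, 8.13 and 8.21 against 10.15, 10.19 and 10.96; log2 fold change -2.22, SE 0.27, adjusted p = 8.19e-05) lay on the same side. The pseudoreceptor BAMBI, which blocks such signals, read 9.33, 10.05 and 9.97 against 7.79, 7.97 and 7.23 (log2 fold change 2.12, SE 0.29, adjusted p = 0.000204). ACVR1 (log2 fold change 2.02, SE 0.34, adjusted p = 0.0012, probe set mean 1.24), the inhibitor SMAD6 (1.34) and the target ID1 (1.23) were higher in BE(2)-C, 7 of 32 in all against 4 in Kelly. These are 21.9% and 12.5%, where 7.20% and 7.89% of all genes were called.

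In the WNT pathway LEF1, a nuclear effector, read 4.42, 4.73 and 5.04 in BE(2)-C and 8.56, 8.46 and 8.03 in Kelly (log2 fold change -3.62, SE 0.27, adjusted p = 1.14e-06, probe set mean -1.21). The receptor FZD7 read 8.30, 7.92 and 8.45 against 5.51, 5.50 and 5.68 (log2 fold change 2.66, SE 0.16, adjusted p = 1.64e-07, probe set mean 1.53). LGR5 and ROR2, described above, were on the same side, whereas the receptor FZD2 was higher in Kelly (-1.06). The call of FZD2 was lost without BE(2)-C replicate 2 or 3 or without Kelly replicate 1 or 3, adjusted p up to 0.0892, and with the ACTB covariate. Of 43 WNT ligands, receptors and inhibitors 4 were higher in BE(2)-C (9.30%) and 3 in Kelly (6.98%), near the 7.20% and 7.89% of all genes. In the NOTCH pathway the target HES1 was higher in BE(2)-C (log2 fold change 1.35, SE 0.26, adjusted p = 0.0026). NRARP (-1.12) and the sugar transferases LFNG (-1.10, probe set mean -0.66) and MFNG (-1.31, probe set mean -0.84) were higher in Kelly. These are 1 of 23 NOTCH genes in BE(2)-C (4.35%) and 3 in Kelly (13.0%), where 7.20% and 7.89% of all genes were higher. STRA6, the receptor that takes up retinol, was higher in BE(2)-C (log2 fold change 1.37, SE 0.25, adjusted p = 0.0022) and RXRA in Kelly (-0.89).

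Of 16 genes of the IGF system 4 were higher in BE(2)-C and 1 in Kelly. IGFBP5, a binding protein of insulin-like growth factors, read 11.27, 11.09 and 10.82 in BE(2)-C and 8.89, 8.89 and 9.28 in Kelly (log2 fold change 2.04, SE 0.17, adjusted p = 3.76e-06). IGFBP7 (2.23, probe set mean 0.60) and IGFBP4 (1.45, probe set mean 0.64) were also higher there, and IGFBPL1 was higher in Kelly (log2 fold change -1.66, SE 0.18, adjusted p = 2.42e-05, probe set mean -0.95). With INSR these are the members that passed.

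Drug transporters and detoxification genes lay on both sides. ABCB1, the P-glycoprotein pump that expels many drugs, read 8.60, 9.80 and 9.35 in BE(2)-C and 5.87, 5.79 and 5.66 in Kelly (log2 fold change 3.48, SE 0.24, adjusted p = 6.49e-07, probe set mean 1.73). ABCA5 lay on the other side, with 4.48, 4.74 and 4.76 against 7.50, 8.46 and 7.47 (log2 fold change -3.15, SE 0.34, adjusted p = 3.08e-05, probe set mean -1.83). Both had separate arrays, and 6 of 23 pumps were higher in BE(2)-C (26.1%) against 2 in Kelly (8.70%). Of 30 metallothioneins, glutathione transferases and aldehyde dehydrogenases 2 were higher in BE(2)-C and 4 in Kelly (6.67% and 13.3%). MT2A, a metallothionein with close paralogs, was higher in BE(2)-C (log2 fold change 2.69, SE 0.32, adjusted p = 5.98e-05, probe set mean 1.34). GSTO2 (log2 fold change -3.24, SE 0.28, adjusted p = 4.49e-06, probe set mean -1.77) and MGST1 (log2 fold change -2.84, SE 0.38, adjusted p = 0.000186), glutathione transferases, were higher in Kelly. Of 11 housekeeping genes HPRT1 passed (0.75, adjusted p = 0.0297; lost without BE(2)-C replicate 2 or 3 or without Kelly replicate 1 or 3, adjusted p up to 0.125).

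**Figure D4:**
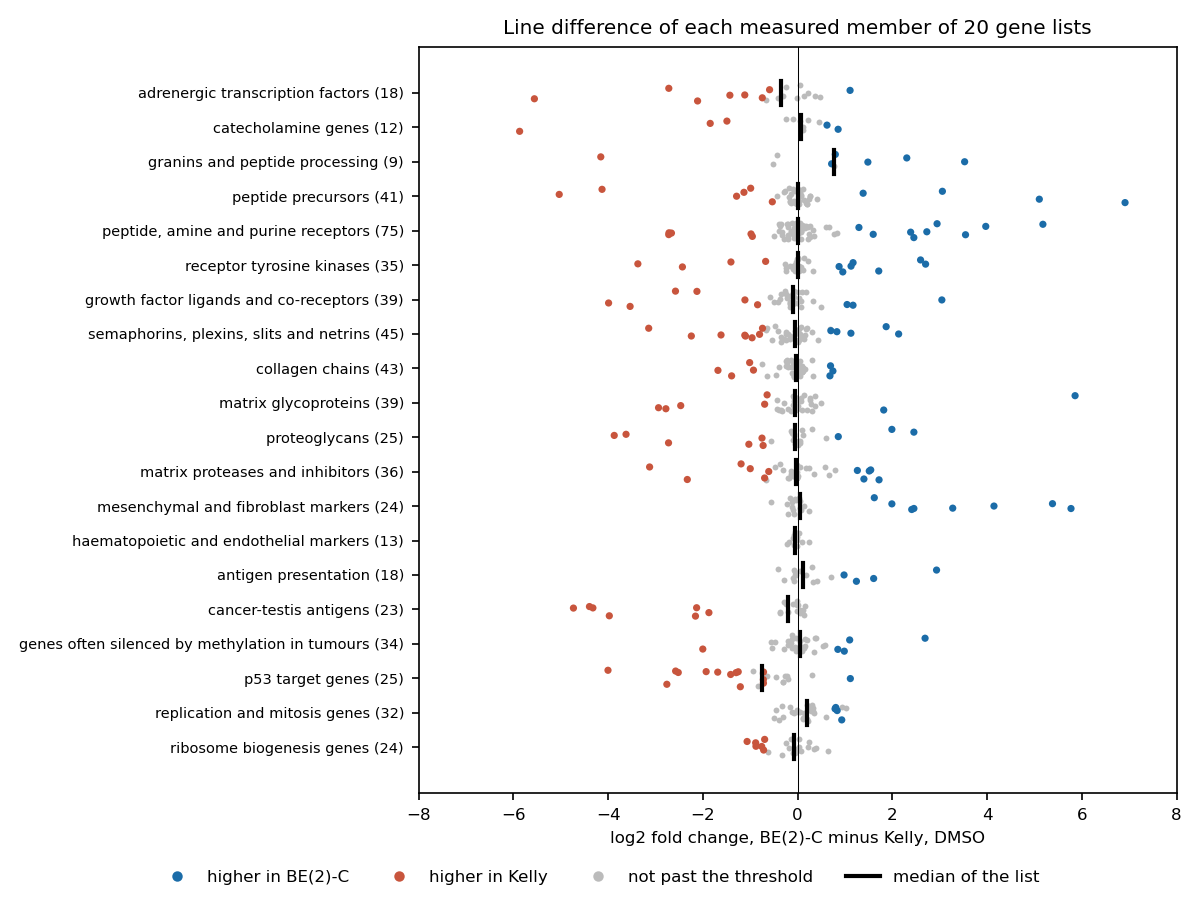
Log2 fold change (x axis, BE(2)-C minus Kelly under DMSO) of every measured member of 20 gene lists (rows, number of measured members in parentheses); coloured points passed, grey points did not, and black bars are list medians. Most medians lie near 0, with the p53 target genes at -0.76 and the granins at 0.76. Some lists hold members far out on both sides, whereas others, such as the mesenchymal markers and the cancer-testis antigens, have passing members on 1 side only.

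The same contrast in the 6 JQ1 arrays, which share no sample with the DMSO arrays, was called in 4229 genes (23.3%), 2346 higher in BE(2)-C (12.9%) and 1883 in Kelly (10.4%), and in 2247 at 2-fold or more (12.4%). Of the 2735 DMSO calls 2617 had the same direction there and 1942 passed the same way, 71.0% of the DMSO calls and 45.9% of the JQ1 calls. Both contrasts shared an estimate of each gene's spread from all 12 arrays, so the repeated calls are not from independent tests. Of the 1532 calls of at least 2-fold 1231 passed the same way. Among leading genes VIP was at 6.82 with JQ1 (adjusted p = 1.56e-09), NPY at 5.53 (adjusted p = 1.74e-09), CNTNAP2 at -6.73 (adjusted p = 3.04e-10) and SOX11 at -6.68 (adjusted p = 3.04e-10). BMP7 was at -4.74 (adjusted p = 1.29e-07) and PTPRG at -3.17 (adjusted p = 4.08e-05), where the DMSO arrays gave -6.09 and -4.69. By list, 7 of the 7 cancer-testis calls, 6 of the 6 granin calls and 10 of the 11 kinase calls passed the same way, as did 6 of the 8 mesenchymal marker calls. For the collagens 0 of 7 calls and for the interferon genes 0 of 2 calls did.

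The line difference itself differed between JQ1 and DMSO in 101 genes (0.557%). SST and CARTPT were among them. SST read 4.24, 4.10 and 4.16 in BE(2)-C and 6.26, 5.76 and 5.07 in Kelly under JQ1, so its log2 fold change was -1.54 there against -5.03 under DMSO (difference 3.50, adjusted p = 0.0014). CARTPT went from -4.13 to -1.14 (adjusted p = 0.000373) and MAOA from -5.87 to -2.51 (adjusted p = 0.0014). The direction stayed for these 3 and the distance between the lines was smaller. DCN, at 1.99 under DMSO and 0.04 under JQ1 (adjusted p = 0.0092), and FGL1, a secreted fibrinogen-like protein, at 2.83 and -0.21 (adjusted p = 0.006), passed in the DMSO arrays and not in the JQ1 arrays (adjusted p = 0.885 and 0.608). IGFBP5 moved apart, from 2.04 to 4.81 (adjusted p = 0.000373).

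**Figure D5:**
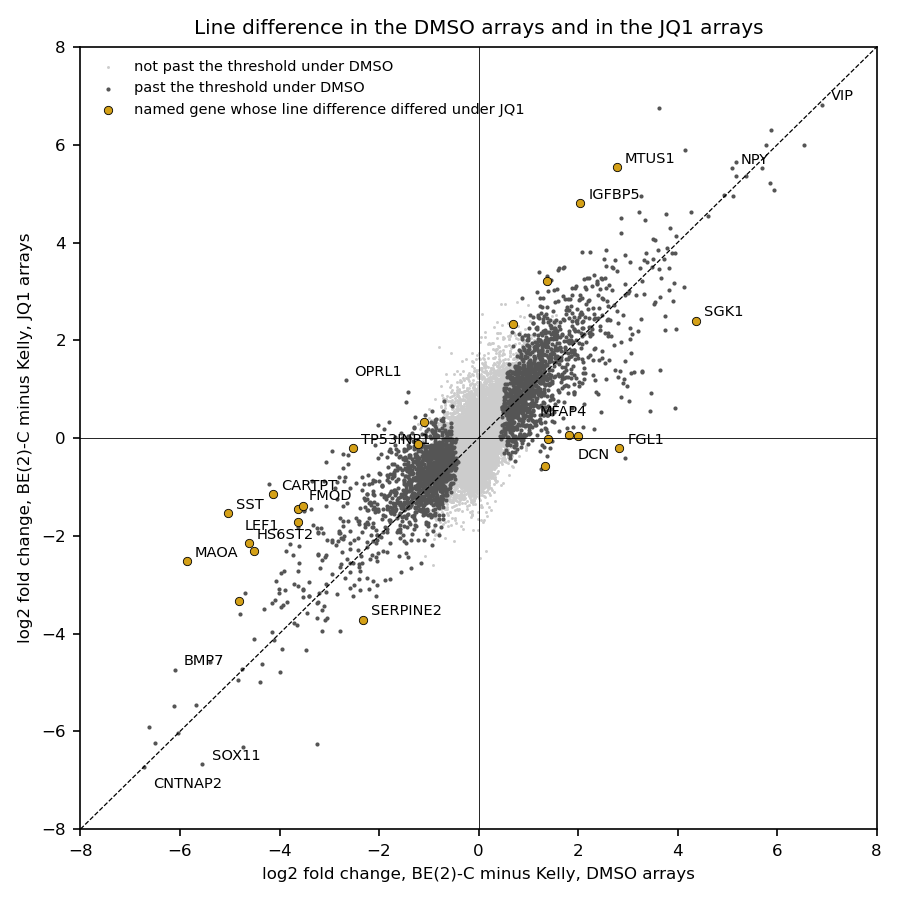
Log2 fold change of BE(2)-C minus Kelly in the DMSO arrays (x axis) and in the JQ1 arrays (y axis) for all but 25 of the 18132 genes. Dark points passed under DMSO, gold points are named genes whose line difference differed under JQ1, and the dashed line marks equality. VIP, NPY, CNTNAP2 and SOX11 lie near the dashed line, whereas SST, CARTPT and MAOA lie nearer to 0 under JQ1 and OPRL1 lies across it.

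Genes that are neighbours on a chromosome passed together in 8 runs of at least 5, read from the order in the GRCh38.p14 gene table. Higher in BE(2)-C were runs of 6 on chromosome 8, from SLC7A2 to ASAH1 (log2 fold changes 1.13 to 2.83), of 6 on chromosome 7, from PRKAR2B to BCAP29 (0.69 to 1.93), and of 5 on chromosome 4, from LRPAP1 to LYAR (0.65 to 1.59). Chromosome 9 held 3 such runs, from ROR2 to CENPP, from SLC35D2 to PRXL2C and from SLC31A2 to PRPF4. Within the chromosome 8 run MTUS1, a microtubule-binding tumour suppressor candidate, read 10.43, 11.32 and 11.28 in BE(2)-C and 8.49, 8.88 and 7.34 in Kelly (log2 fold change 2.78, SE 0.36, adjusted p = 0.00015), and SLC7A2, an arginine transporter, read 11.70, 11.39 and 11.53 against 8.96, 9.0 and 9.52 (log2 fold change 2.38, SE 0.18, adjusted p = 1.35e-06). Higher in Kelly were 7 genes on chromosome 12, from RERG to LMO3 (-2.95 to -0.72), which include MGST1, and 5 on chromosome 11, from LRP4 to DDB2 (-1.94 to -0.72). In the JQ1 arrays 6 of 6 members of the chromosome 7 run, 5 of 6 of the chromosome 8 run, 4 of 7 of the chromosome 12 run and 3 of 5 of the chromosome 4 and chromosome 11 runs passed the same way, as did 5 of 6, 5 of 5 and 5 of 5 on chromosome 9. All members passed under every alternative run for them only in the chromosome 8 run and the run from SLC35D2 to PRXL2C. In the other runs that held for 1 of 5 on chromosome 4, 4 of 6 on chromosome 7, 3 of 6 from ROR2, 4 of 5 from SLC31A2, 2 of 5 on chromosome 11 and 5 of 7 on chromosome 12, so these 6 are complete with all arrays in the settings given above but not under every alternative. Calls at the ends of the chromosome 4 run were lost without Kelly replicate 2, adjusted p = 0.0625 (LRPAP1) and lost without BE(2)-C replicate 3 or without Kelly replicate 1, adjusted p up to 0.0536 (LYAR). DDB2 was lost without BE(2)-C replicate 1 or 2 or without Kelly replicate 1, 2 or 3, adjusted p up to 0.152. DNA copy number was not measured.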

How the data were processed

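RNA of 12 samples was read on the PrimeView array, and the authors deposited RMA intensities on a linear scale, per the submitters' processing notes and the values; the RMA version and background steps are not given in the sources used here. Log2 was taken with no offset. By GEO's platform annotation 44988 of 49395 probe sets had a single gene symbol; the 102 controls, 1832 with more symbols and 2473 without were left out. A gene's brightest probe set over the 12 arrays stood for it, which gave 18132 genes. limma 3.58.1 in R 4.3.3 fitted 4 group means to all 12 arrays (lmFit, contrasts.fit, eBayes), with Benjamini-Hochberg adjustment over all genes and a threshold of 0.05. The script was tested on simulated data.

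The rule for named genes took the 20 furthest each way without overlap, up to 6 passing members of each list with the largest difference (the 2 largest where none passed), members bright in one line and dim in the other, 12 check genes, and runs of at least 5 passing neighbours. The rule left out 25 genes by their identity, not their values, and these are not drawn in the figures. Outside it PHOX2A, GATA2, CHGA, DDC, PRRX1, GAL, NMB, TAC3, NTS, NPY1R, VIPR1, VIPR2, SSTR1, SSTR2, SSTR3, SSTR4, SSTR5, EGFR, LTK, FGFR1, RET, KIT, NTRK2, COL1A1, CDH2, VIM, PTPRC, CD276, NCAM1, TAP1, CTAG2, TP53I3, MYC, ID1, BNIP3L, MAML3, RIMBP2 and OPRL1 were chosen after their values were seen. The members and lists were chosen with earlier results of these data known. Alternatives covered other probe set rules, normalization, an offset, dim genes, priors, covariates, the replicate block and single arrays left out.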

Additional observations from a re-analysis of the deposited data

Results flagged for a closer look

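For 23 of the 306 named genes the line difference (BE(2)-C minus Kelly, log2) differed between the JQ1 and the DMSO arrays, by limma's test of the difference itself. Over all genes 0.557% did. Many genes were named for a large difference under DMSO, which this test subtracts, so smaller differences under JQ1 are partly built in. The values below are the JQ1 minus the DMSO difference. In 12 genes higher in Kelly under DMSO the lines stood nearer each other under JQ1. These were SST at 3.50 (adjusted p = 0.0014), MAOA at 3.36 (0.0014), CARTPT at 2.99 (0.000373), HS6ST2 at 2.47 (0.0029), TP53INP1, a stress-induced p53 target, at 2.31 (0.0087), PCDHB5 at 2.20 (0.0126), FMOD at 2.18 (0.0472), SCN1A at 2.14 (0.0332), LEF1 at 1.91 (0.0472), TRIM29 at 1.48 (0.0431), RERG at 1.44 (0.0441) and EFNB3 at 1.11 (0.0332). TP53INP1, for example, was at -2.52 under DMSO and -0.21 under JQ1. Its other probe set gave -0.12 under DMSO.

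On the BE(2)-C side the difference was smaller under JQ1 for FGL1 (-3.04, adjusted p = 0.006), SGK1 (-1.97, adjusted p = 0.0121), DCN (-1.95, adjusted p = 0.0092), ABCA12 (-1.89, adjusted p = 0.0332), MFAP4 (-1.76, adjusted p = 0.0124) and ADAMTS1 (-1.41, adjusted p = 0.006). DCN, MFAP4 and ADAMTS1 all code for secreted matrix proteins. MFAP4 read 6.33, 6.58 and 6.33 in BE(2)-C and 6.19, 6.40 and 6.47 in Kelly under JQ1, and its lines no longer passed (0.06, adjusted p = 0.832). ABCA12 stood at -0.56 under JQ1 (adjusted p = 0.117), which did not pass.

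The lines stood further apart under JQ1 for IGFBP5 (2.77, adjusted p = 0.000373), MTUS1 (2.77, adjusted p = 0.0325), STRA6 (1.86, adjusted p = 0.0393) and HBP1 (1.65, adjusted p = 0.0051), all higher in BE(2)-C, and for SERPINE2 (-1.39, adjusted p = 0.0151), higher in Kelly. MTUS1 read 10.84, 11.02 and 10.44 in BE(2)-C and 5.61, 5.02 and 5.04 in Kelly under JQ1, at 5.55 against 2.78 under DMSO. IGFBP5 read 9.39, 9.21 and 9.21 and 4.50, 4.28 and 4.61 under JQ1. Neither gene's lines overlapped in the DMSO or the JQ1 arrays.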

How the results depend on the processing

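No named gene reversed under the alternatives run for it, 16 for most, which left out the test of every probe set by itself. In that test UNC5C and SYNGR1 each had probe sets that passed in opposite directions. Leaving out dim genes gave no value for some named genes, and covered 276 of the 295 named calls (306 named genes). Of the 295, 227 passed under every alternative run for them, as did all 130 with at least 4-fold differences. Against 2735 DMSO calls, the control signal as a covariate gave 4800 (2098 higher in BE(2)-C, 2702 in Kelly), and every probe set tested by itself 5516 (2818 and 2698; 3212 at 2-fold). The ACTB covariate gave 3476 with a split of 1202 to 2274, quantile normalization 3102 (1329 to 1773), the DMSO arrays alone 1926 and single arrays left out 1956 to 2853. For the JQ1 arrays (4229) the ACTB covariate gave 2504 (1128 higher in BE(2)-C) and every probe set 9094 (5659 and 3435; 5126 at 2-fold). Leaving out single arrays gave 2556 to 4094, of which 1537 to 2285 were higher in BE(2)-C and 1019 to 1809 in Kelly, the lowest without BE(2)-C JQ1 replicate 2. The difference between treatments (101) became 300 with the ACTB covariate, 686 with the control signal and 39 to 212 without single arrays, the lowest without BE(2)-C JQ1 replicate 1 and the highest without Kelly DMSO replicate 3. The cause was not tested. The mean of probe sets gave 2688 calls but 1123 at 2-fold, against 1532. With replicate number as a block 2646 genes passed (1273 and 1373), but same-numbered samples did not deviate together (r of deviations -0.28, 0.62 and -0.72 in the DMSO arrays), so the numbers were not read as pairs. Leaving out both DMSO arrays with the highest control signal, an alternative chosen after seeing the data, gave 2823. Of 108 list counts 15 moved by over 1.5 times with the ACTB covariate, 21 with the DMSO arrays alone and 29 with the control signal. Signals at the level of the background controls, 3 arrays a group and 1 line a group limit precision.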

Other observations

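Probe sets of 16 genes passed in opposite directions. In LRRFIP1, a nucleic acid binding protein, 4 probe sets were higher in BE(2)-C (log2 fold changes 1.21 to 2.07) and 3 higher in Kelly (-1.57 to -0.89). In PDLIM5, an actin-associated scaffold, 3 were higher in BE(2)-C (1.85 to 2.45) and 1 in Kelly (-0.63). In ATRNL1 1 was higher in BE(2)-C (1.32) and 2 in Kelly (-0.97 and -0.62). Which transcripts these probe sets match was not analysed here.

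Among the genes called in both sets of arrays, 4 passed in opposite directions. OPRL1, the nociceptin receptor, read 6.63, 6.17 and 6.51 in BE(2)-C and 9.09, 8.81 and 9.41 in Kelly under DMSO (-2.66) and 6.42, 6.49 and 6.77 and 5.58, 5.45 and 5.08 under JQ1 (1.19, adjusted p = 0.0011). RIMBP2, a synaptic scaffold, stood at -1.42 and 0.95, MAML3, a NOTCH coactivator, at -0.69 and 0.76, and BNIP3L, a mitophagy receptor, at -0.52 and 0.66.

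The share of genes called differed by chromosome. On chromosome 9 16.7% of genes were higher in BE(2)-C and 6.35% in Kelly, on chromosome 14 12.1% and 4.04%, on chromosome 16 8.80% and 3.07%, and on chromosome 15 10.8% and 5.22%. On chromosome 1 2.92% were higher in BE(2)-C and 13.9% in Kelly, on chromosome 3 4.90% and 15.4%, and on chromosome 22 3.48% and 10.4%. Over all genes these shares were 7.20% and 7.89%.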
